A study of Mus musculus with 68 samples.

Results

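The replication-dependent histone genes were read here as the 68 gene symbols, of 24421 reference symbols in each deposited table, whose names begin with Hist1h, Hist2h, Hist3h or Hist4h. They fell into 5 classes by name, with 6 genes of the linker histone H1, 18 of H2a, 19 of H2b, 12 of H3 and 13 of H4. Of these genes, 54 lie on chromosome 13, 10 on chromosome 3, 3 on chromosome 11 and 1 on chromosome 6 of the mm10 build. No gene was listed at 0 in every library, and 11 had a mean level under 1 TPM (the authors' unit, a gene's share of a library's transcripts scaled for length) over the 68 libraries. These 11 comprised 2 genes of H1, 1 of H2a, 3 of H2b, 3 of H3 and 2 of H4.

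Replication-dependent histone genes supply the core and linker histones that package newly copied DNA, and in dividing somatic cells their mRNAs are made mainly in S phase. Their mRNAs typically end in a short stem-loop rather than a poly(A) tail. The stem-loop is bound by SLBP, and cleavage just past it is directed by the U7 small nuclear ribonucleoprotein, which carries LSM10 and LSM11. Polyadenylated forms of some of these mRNAs are known in differentiated cells. The Smart-seq2 assay used here copies RNA with a poly(A) tail, so each value below is a level in that RNA and not a level of all histone mRNA.

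Mouse embryos made by somatic cell nuclear transfer (SCNT) were compared with their donor cells and along their development. The donors were cumulus cells (CC, n = 3) of B6D2F1 mice, placed in enucleated oocytes that were then activated with strontium chloride. The SCNT libraries covered 1-cell embryos at 6 h and 14 h post activation (6 hpa and 14 hpa), early and late 2-cell embryos (E2C and L2C), 8-cell embryos (8C) and morulae, with 6 libraries each, and 4-cell embryos (4C) with 5. From SCNT blastocysts there were 6 libraries of the inner cell mass (ICM), which forms the embryo proper, and 6 of the trophectoderm (TE), which forms the placenta. In a second experiment, fertilized C57BL/6j zygotes were injected with a morpholino, an antisense oligonucleotide, against Max (Max MO) or Mcrs1 (Mcrs1 MO) or with a random control morpholino (control MO), and the ICM and TE of the resulting blastocysts gave 2 libraries in each of 6 groups. The submitters labelled the control MO libraries as untreated. By the paper's account, the control morpholino was injected at a higher concentration than the Max or Mcrs1 morpholino used for these libraries. Dose and target therefore cannot be told apart in the morpholino comparisons. Each reaction pooled 10 blastomeres. The labels number the libraries of a group as replicates without saying whether they came from separate embryos or days, so the p-values below measure the spread between these libraries.

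Aligned sequence ranged from 1.00 to 5.17 gigabases per library, with a median of 3.05. The TPM of reference gene rows summed to 30.4% to 94.4% of that of the assembled loci listed beside them, lowest in L2C replicate 1. The SCNT ICM libraries ranged from 6177 to 10032 genes at 1 TPM or more, with 6177 to 6771 in replicates 1 to 3 and 9011 to 10032 in replicates 4 to 6. The summed TPM of 9 cumulus cell markers was 1379 to 2111 in CC and at most 66.6 in every other library. That of 8 oocyte markers was 6474 to 15620 at 6 hpa and at most 2.25 in CC, where 7 of the 8 had a median of 0. Summed ICM markers were 230 to 414 TPM in SCNT ICM and 84.1 to 244 TPM in SCNT TE, with ranges that overlapped, while TE markers were 2034 to 8506 TPM and 5143 to 16190 TPM. In these bulk samples, fewer cells of a type and less RNA per cell cannot be told apart.

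The stem-loop is shown first because it is the feature by which most mRNAs of this kind would escape an assay of polyadenylated RNA. The letters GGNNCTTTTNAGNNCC, 16 bases read on the transcript strand, were found in annotated transcripts of 44 of the 67 genes that had a protein-coding transcript in the mm10 annotation (GENCODE vM21). Of the 21810 other genes with such a transcript, 28 held them (0.128%). By class, 4 of 6 H1 genes, 11 of 18 H2a genes, 10 of 18 H2b genes, 8 of 12 H3 genes and 11 of 13 H4 genes had the letters. Several genes without them have an annotated transcript that ends at the coding sequence, so the stretch past it was not searched. Examples are Hist1h2ai, with 393 bases for a coding sequence of 390, and Hist1h4k, with 312 for 309. Absence of the letters there does not show that the gene lacks a stem-loop. In 41 of the 43 genes whose listed row spans the stem-loop, that row ends within 10 bases after it. The annotated transcripts of 22 of the 44 genes run well past the stem-loop. Among the genes printed below, that of Hist1h4d runs 770 bases past it, that of Hist2h3c2 377 and that of Hist1h2ap 3. There were 6 distinct sequences, in which capitals mark the 4 bases of the loop.
Hist1h2ap, chr13:21833029-21833044, minus strand: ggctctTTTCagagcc
Hist1h4d, chr13:23581950-23581965, plus strand: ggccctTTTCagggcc
Hist2h3c2, chr3:96238485-96238500, minus strand: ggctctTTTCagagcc
The sequence printed for Hist1h2ap was held by 3 genes of H1, 10 of H2a, 8 of H2b and 5 of H3. In H4 the stem differed: 7 genes held the sequence printed for Hist1h4d, 2 held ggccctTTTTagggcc and 2 held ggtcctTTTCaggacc. The other forms were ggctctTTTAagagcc, found in 1 H1, 2 H2b and 3 H3 genes, and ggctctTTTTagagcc, found in 1 H2a gene. The letters were not found in the annotated transcript of Hist1h2bc or of Hist1h1a, both of which are described below. For Hist1h2bc that transcript has 1156 bases where the listed row spans 8282, so much of the row was not searched. Absence of the letters therefore does not show that Hist1h2bc lacks a stem-loop.

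Individual copies must be read with care, since many are nearly the same sequence. The coding sequences of 11 Hist1 H2a genes, each 390 bases long, were 96.4% to 100% identical over 55 pairs, with a median of 98.2%. Hist1h2ah, whose coding sequence has 384 bases, and Hist1h2aa were not compared. Hist1h2ao and Hist1h2ap were 100% identical and are listed on the same loci. The same holds for Hist1h2bq with Hist1h2br, Hist1h4m with Hist1h4n, Hist2h2aa1 with Hist2h2aa2, and Hist2h3c1 with Hist2h3c2, so how reads were shared within these pairs is uncertain and the paired values below are not separate measurements. Some listed rows are far longer than a histone mRNA, such as that of Hist1h2bc (8282 bases, chr13:23684199-23692480, plus strand) and that of Hist1h2be (37455 bases). Hist1h4n has 1 row of 20375 bases. Hist2h3c1 and Hist2h3c2 of H3 each have a row of 8870 bases (chr3:96238479-96247348, minus strand) that spans listed loci of Hist2h2aa1 and Hist2h2aa2 of H2a. How reads were shared between these H2a and H3 genes is therefore uncertain too.

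Across the SCNT series the H2a class stood far above the others from L2C on. Its summed TPM had a median of 368 in CC (327 to 489), 106 at 6 hpa (71.1 to 196), 303 at 14 hpa (157 to 470) and 349 in E2C (285 to 396). It was then 1390 in L2C (1060 to 1591), 3406 in 4C (2492 to 6460), 3752 in 8C (2521 to 4312) and 3530 in morulae (551 to 6484). The blastocyst medians were 1938 in SCNT ICM (468 to 3020) and 1419 in SCNT TE (1048 to 2379). Every L2C library was above every E2C library, and every 4C library was above every L2C library. With symbols on the same locus counted once, an alternative chosen after seeing the data, the H2a medians were 216 in E2C, 1021 in L2C and 2788 in 8C. At 14 hpa replicates 1 to 3 held 157 to 168 TPM and replicates 4 to 6 held 437 to 470 TPM, so that median lies between separate sets of libraries. Replicates 1 to 3 also lay below replicates 4 to 6 at 6 hpa and in L2C, 4C, morulae and SCNT ICM. In SCNT ICM these sets held 468 to 1909 and 1968 to 3020 TPM. One morula library, replicate 2, held 551 TPM against 1899 to 6484 in the other 5.

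H2b, whose protein enters the nucleosome as a dimer with H2A, was at its lowest where H2a was high during cleavage. The summed H2b TPM had a median of 58.2 in CC, 75.6 at 6 hpa, 128 at 14 hpa and 87.6 in E2C. It was 55.4 in L2C (31.6 to 66.6), 18.7 in 4C (5.07 to 34.7) and 18.3 in 8C (3.75 to 57.8). The median then was 60.0 in morulae, 342 in SCNT ICM (211 to 431) and 142 in SCNT TE (68.9 to 201), and every ICM library was above every TE library. In 8C replicates 1 to 3 held 3.75 to 14.3 TPM and replicates 4 to 6 held 22.3 to 57.8 TPM, and at 14 hpa they held 75.5 to 89.0 and 166 to 190 TPM. In SCNT ICM these sets held 211 to 318 and 367 to 431 TPM. In SCNT TE they held 68.9 to 126 and 157 to 201 TPM, so both blastocyst medians lie between separate sets of libraries.

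H3 followed a course like that of H2b in its early part. Its summed TPM had medians of 7.42 in CC, 28.3 at 6 hpa, 62.8 at 14 hpa, 74.3 in E2C and 59.5 in L2C (24.7 to 72.9). The 4C libraries held 1.28 to 17.0 TPM (median 8.32), all below the L2C libraries. Later medians were 10.6 in 8C, 21.6 in morulae, 50.2 in SCNT ICM (4.98 to 75.3) and 32.0 in SCNT TE. The TE median lies between separate sets of libraries, 8.95 to 18.5 TPM in replicates 1 to 3 and 45.5 to 62.8 TPM in replicates 4 to 6. The same is true at 14 hpa, where these sets held 38.5 to 46.6 and 79.1 to 105 TPM.

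Summed H4 medians stayed between 62.7 and 94.9 TPM from 14 hpa on, while the makeup of the class changed. They were 30.2 in CC, 26.7 at 6 hpa, 82.2 at 14 hpa, 92.0 in E2C, 94.9 in L2C, 81.6 in 4C, 94.7 in 8C, 89.4 in morulae, 62.7 in SCNT ICM and 65.4 in SCNT TE. Single libraries varied more, with 34.9 to 152.6 TPM of H4 in morulae. The 14 hpa median of H4 lies between separate sets of libraries. Replicates 1 to 3 held 47.7 to 72.25 TPM there and replicates 4 to 6 held 92.1 to 108.8 TPM. H1 medians lay between 17.3 in CC and 40.2 at 14 hpa, where replicates 1 to 3 held 13 to 22.1 TPM and replicates 4 to 6 held 58.3 to 75.9 TPM. In 8C the order was the reverse, with 34.1 to 58.3 TPM in replicates 1 to 3 and 8.79 to 15.4 TPM in replicates 4 to 6. In SCNT ICM replicates 1 to 3 held 5.98 to 16.9 TPM of H1 and replicates 4 to 6 held 23.7 to 37.8 TPM. For H4 these sets held 3.97 to 58.3 and 67.1 to 121 TPM in SCNT ICM. In SCNT TE they held 40.7 to 53.95 and 76.9 to 111 TPM of H4.

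**Figure D1:**
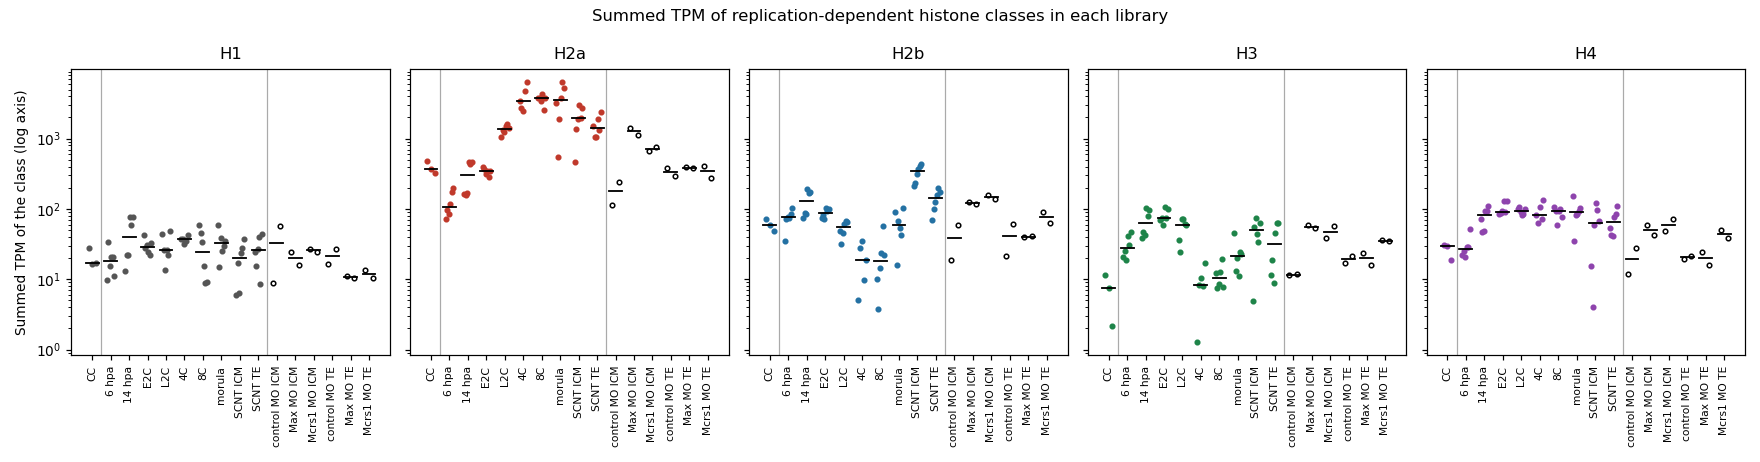
Summed TPM of each class on a log axis, 1 point for each of the 68 libraries and a bar at the group median, with filled points for CC and SCNT stages and open points for fertilized blastocysts. H2a medians lie at 1390 in L2C and 3406 in 4C where those of H2b lie at 55.4 and 18.7.

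Of the 68 genes, 62 had a median of at least 1 TPM in 1 or more SCNT stages, and their highest stage differed by class. In H2a, 6 genes were highest in 8C and 6 in morulae, all of them Hist1 genes. In H2b, 8 genes were highest at 14 hpa and 7 in SCNT ICM. In H4, 8 genes were highest in E2C, as were 3 genes of H3, while 4 further H3 genes were highest in L2C.

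**Figure D2:**
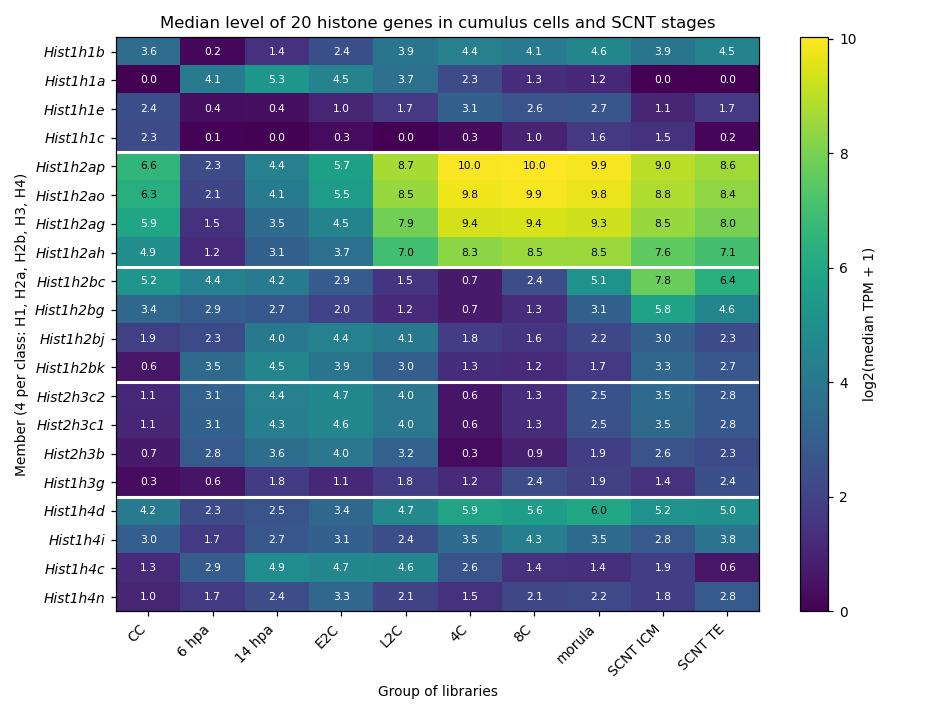
Median level on the log2(TPM + 1) scale of the 4 most abundant genes of each class (rows) in CC and the 9 SCNT stages (columns), with the value written in each cell. The H2a rows are brightest from 4C to morulae, while Hist1h2bc and Hist1h2bg are brightest in SCNT ICM.

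The first comparison asked how the polyadenylated histone RNA of the donor cells differs from that of the reconstructed 1-cell embryo, which carries oocyte RNA. No oocyte library was included. Rises and falls at this step are therefore differences between these samples and are not read as changes in the output of the donor nucleus. By limma on log2(TPM + 1), with a gene called where its adjusted p was below 0.05 and its change 2-fold or more, 15 of the 55 genes tested were higher at 6 hpa than in CC and 17 were lower. Over all 12084 genes tested, 25.8% were called higher and 35.6% lower, so the histone genes as a whole were near the background and differed by class. The H2a class held 13 of the 17 lower calls, with 1 H2a gene higher. H2b had 6 genes higher and 0 lower, H3 had 4 higher and 0 lower, H4 had 3 higher and 1 lower, and H1 had 1 higher and 3 lower.

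The genes that were higher at 6 hpa included forms known from germ cells. Hist1h2aa, which encodes a testis and oocyte form of H2A, was listed at 0 to 0.211 TPM in the 3 CC libraries and at 24.0 to 42.8 TPM (median 30.1) at 6 hpa. It rose by 4.88 ± 0.43 on the log2 scale (adjusted p = 1.037e-14, limma), with no overlap between the groups. Hist1h2ba, the partner testis form of H2B, was 0.399 to 0.870 TPM in CC and 3.55 to 13.1 TPM at 6 hpa (2.24 ± 0.52, adjusted p = 0.0001964, limma).

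Hist1h1a, an H1 linker histone gene, was listed at 0, 0 and 0.157 TPM in CC and at 9.69 to 32.6 TPM (median 16.6) at 6 hpa, a rise of 4.03 ± 0.55 log2 units (adjusted p = 8.24e-09, limma). Hist1h1b, another linker gene, held 8.37, 10.8 and 13.6 TPM in CC and 0 to 1.07 TPM at 6 hpa (−3.26 ± 0.64, adjusted p = 1.616e-05, limma). Hist4h4 was listed at 0 in all 3 CC libraries and at 1.83 to 5.37 TPM at 6 hpa.

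Hist1 copies of H2a were the main genes that fell. Hist1h2ag held 36.8, 60.8 and 89.5 TPM in CC and 0.286 to 3.85 TPM (median 1.75) at 6 hpa, and fell by 4.51 ± 0.49 on the log2 scale (adjusted p = 1.152e-11, limma). Hist1h2ap held 79.2, 95.5 and 115 TPM in CC and 2.15 to 11.6 TPM at 6 hpa (−4.19 ± 0.47, adjusted p = 2.798e-11, limma). Of the 32 genes called, 30 had no overlap between the groups, against 97.8% of all genes called at this step.

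From 6 hpa to 14 hpa, 13 of 56 genes tested rose and 0 fell, where 6.14% of all 11867 genes were called higher and 4.94% lower. The 13 comprised 8 genes of H2a, 2 of H2b and 3 of H4. The median change of the tested histone genes was 0.85 log2 units, against 0.01 over all genes. At an unadjusted p under 0.05, 27 genes were higher and 1 was lower, against 12% and 11.0% of all genes. Hist1h4c rose from a median of 6.34 TPM (4.71 to 12.7) to 28.2 TPM (18.3 to 31.4), with no overlap (1.70 ± 0.36, adjusted p = 0.0004966, limma). Hist1h2ag rose from 1.75 to 10.3 TPM (5.73 to 15.7), also with no overlap (2.07 ± 0.40, adjusted p = 0.0001364, limma). In replicates 1 to 3 alone 5 genes were called, all higher. The 14 hpa libraries listed 7438 to 9103 genes at 1 TPM or more in replicates 1 to 3 and 10160 to 10564 in replicates 4 to 6, and the part of this difference was not tested.

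Between 14 hpa and E2C, 2 genes rose and 0 fell, against 2.78% and 3.05% of all genes. Both calls, Hist1h2ao and Hist1h2ap, come from the same loci. Hist1h2ap had 12.1 to 29.1 TPM at 14 hpa and 32.5 to 72.1 TPM in E2C (1.33 ± 0.39, adjusted p = 0.02518, limma), and the groups did not overlap. After quantile normalization 2 genes were higher and 3 lower. In replicates 4 to 6 alone the direction of the calls turned, with 0 genes higher and 3 lower, and neither Hist1h2ao nor Hist1h2ap was called.

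The step from E2C to L2C spans the time at which the embryonic genome is switched on in mouse embryos. Here 14 of 56 histone genes rose and 7 fell, against 23.7% and 11.2% of all genes, so that the share of histone genes called was near the background in each direction. By class the calls were uneven: 13 of the 14 that rose were H2a genes, of 17 H2a genes tested, and the other was Hist1h4d. The median change of the tested H2a genes was 2.24 log2 units, of H2b genes −0.56, of H3 genes −0.26 and of H4 genes −0.22, against 0.26 over all genes. After quantile normalization, which set the median of all genes to −0.01, 14 genes were higher and 18 lower.

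Hist1h2ag went from 12.2 to 42.5 TPM in E2C (median 22.0) to 168 to 286 TPM in L2C (median 237). That was a rise of 3.26 ± 0.40 log2 units (adjusted p = 4.439e-09, limma), and no E2C library reached the lowest L2C library. Hist1h2ap went from 32.5 to 72.1 TPM to 303 to 445 TPM (2.98 ± 0.39, adjusted p = 1.643e-08, limma). Its share of the H2a sum went from a median of 4.37% at 6 hpa to 14.3% in E2C, 28.4% in L2C and 28.3% in 4C.

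The 7 genes that fell at this step were Hist2h2aa1 and Hist2h2aa2, Hist1h2ba and Hist1h2bh, and Hist1h4m, Hist1h4n and Hist4h4. Hist1h2ba went from a median of 12.2 TPM (4.46 to 23.0) to 1.65 TPM (0.275 to 7.52), with ranges that overlapped (−2.15 ± 0.44, adjusted p = 7.412e-05, limma). Hist4h4 went from 14.2 TPM (7.14 to 24.3) to 6.40 TPM (0.808 to 13.9), again with overlap (−1.29 ± 0.45, adjusted p = 0.02018, limma). Of the 21 genes called at this step, 15 did not overlap between the stages, against 48.3% of all genes called.

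From L2C to 4C, 13 genes rose and 20 fell, against 11.8% and 26.6% of all genes. The classes again parted. Of the 13 that rose, 12 were H2a genes, all from Hist1, and the other was Hist1h1e of the linker class. The 20 that fell comprised 3 H2a, 5 H2b, 5 H3, 6 H4 and 1 H1 gene. The median change was 1.56 log2 units for H2a, −0.85 for H2b, −1.48 for H3 and −1.05 for H4, against −0.33 for all genes. This step and the one before it share the L2C libraries.

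Hist1h2ag reached 500 to 1264 TPM in 4C (median 666), with no 4C library as low as any L2C library (1.70 ± 0.42, adjusted p = 0.0008115, limma). Hist2h3c2, whose stem-loop is printed above, went from 6.03 to 23.3 TPM (median 14.9) to 0.299 to 2.31 TPM (median 0.482), also with no overlap. It fell by 3.0 ± 0.52 on the log2 scale (adjusted p = 3.859e-06, limma), and Hist2h3c1 on the same loci fell by 2.98 ± 0.51. Hist1h2bj of H2b fell by 2.44 ± 0.37 (adjusted p = 3.954e-07, limma), from a median of 15.6 TPM to 2.55 TPM.

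In H4 the shares of Hist1h4c and Hist1h4d moved in opposite directions over these steps. Hist1h4c went from 21.3 to 27.0 TPM in L2C (median 23.4) to 0.643 to 8.37 TPM in 4C (median 5.02) and fell by 2.42 ± 0.38 log2 units (adjusted p = 6.724e-07, limma). Hist1h4d went from a median of 9.22 TPM in E2C (3.85 to 10.3) to 25.6 TPM in L2C (14.1 to 52.0), and held 57.1 TPM in 4C (42.1 to 106). Its share of the H4 sum had medians of 8.74% in E2C, 28.7% in L2C, 69.9% in 4C and 73.6% in morulae, while that of Hist1h4c was 26.8%, 24.3%, 3.70% and 1.64%.

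The linker class exchanged its leading gene over the same stages. Hist1h1a made up a median of 94.2% of the H1 sum at 6 hpa, 93.4% at 14 hpa, 79.0% in E2C, 46.0% in L2C, 11.4% in 4C and 0% in SCNT ICM. Hist1h1b made up 1.29% at 6 hpa, 15.8% in E2C, 43.9% in L2C, 60.8% in 4C and 74.6% in SCNT ICM. In TPM, Hist1h1a had a median of 21.7 in E2C and 4.05 in 4C, and Hist1h1b had 4.41 and 19.6.

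**Figure D3:**
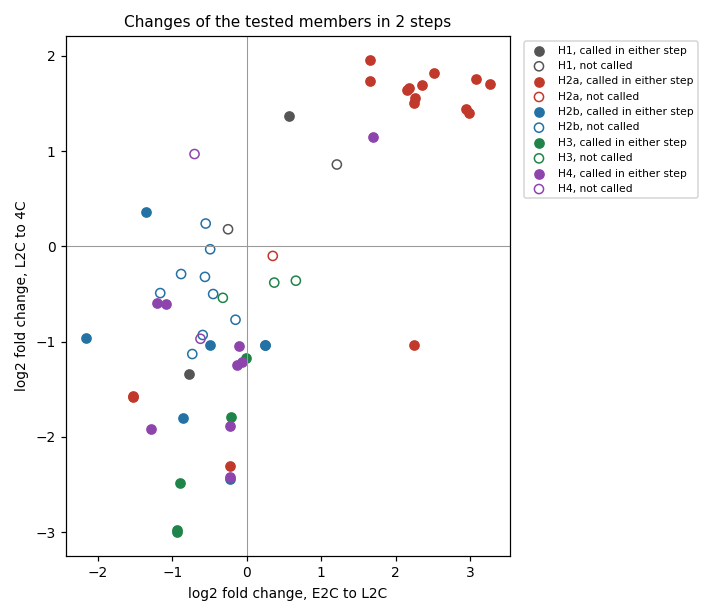
Log2 fold change from E2C to L2C (horizontal axis) and from L2C to 4C (vertical axis) for each tested histone gene, coloured by class, with filled points for genes called in either step. The L2C libraries enter both axes, and the H2a medians lie at 2.24 and 1.56.

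Between 4C and 8C no histone gene was called by limma in either direction, against 11.5% of all genes higher and 8.23% lower. At an unadjusted p under 0.05, 2 were higher and 2 lower, against 18.8% and 13.9% of all genes, and the median change was −0.02 log2 units. Other settings called from 0 to 5 genes. From 8C to morula, 4 genes rose and 0 fell, against 8.74% and 3.48%, and none of the 4 was free of overlap, against 49.3% of all genes called. They were Hist3h2a, Hist1h2bc, Hist1h2bg and Hist1h3c, with Hist1h2bc at a median of 4.21 TPM in 8C (0.535 to 29.9) and 34.3 TPM in morulae (4.35 to 52.3). When the libraries were limited to replicates 4 to 6, 12 rose and 1 fell.

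From morula to ICM, 8 genes rose and 3 fell, against 8.96% and 15.0% of all genes. All 8 that rose were H2b genes, of 16 tested, and the 3 that fell were Hist1h1e, Hist1h2ak and Hist1h4d. Hist1h2bc held 146 to 283 TPM in SCNT ICM (median 215), each library above the highest morula library at 52.3 TPM, and rose by 3.0 ± 0.52 log2 units (adjusted p = 1.418e-05, limma). Hist1h2bg went from a median of 7.70 TPM (1.01 to 13.2) to 53.5 TPM (34.2 to 68.7), with no overlap (2.89 ± 0.39, adjusted p = 1.118e-07, limma). Hist1h2bc made up a median of 62.2% of the H2b sum in CC, 2.81% in 4C and 65.9% in SCNT ICM.

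From morula to TE, 2 genes rose and 4 fell, against 11.0% and 10.8% of all genes. The 2 that rose were again Hist1h2bc (1.56 ± 0.52, adjusted p = 0.02284, limma) and Hist1h2bg (1.58 ± 0.39, adjusted p = 0.001876, limma), with medians of 81.3 and 23.2 TPM in SCNT TE. The 4 that fell were Hist1h1a, Hist1h2ab, Hist1h2ad and Hist1h2ak. Both steps share the morula libraries and rest in part on morula replicate 2. Without it, 6 genes were higher and 13 lower from morula to ICM, 11 of the lower ones in H2a, and 1 was higher and 12 lower from morula to TE, all 12 in H2a.

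Within the SCNT blastocyst, 1 gene was higher in ICM than in TE and 0 were lower, against 1.47% and 3.87% of all genes. That gene was Hist1h2bg, at 34.2 to 68.7 TPM in ICM and 12.2 to 32.9 TPM in TE, with no overlap (1.31 ± 0.39, adjusted p = 0.0362, limma). ICM and TE libraries with the same replicate number deviated together, and with the replicate number as a block 3 genes were called: Hist1h2bc (1.44 ± 0.46) and Hist1h2bg (1.31 ± 0.35) were higher in ICM, and Hist1h4n (−1.30 ± 0.41) was lower. Summed TE markers in these ICM libraries reached 8506 TPM, above the lowest TE library at 5143 TPM, and their part in the result was not tested.

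H2a and H2b genes often lie head to head, and the stretch between their starts holds the promoters of both. There were 15 such pairs of symbols whose listed starts lie at most 400 bases apart. At 4C the H2a partner had the higher median in 15 of 15 pairs, at 6 hpa in 7 of 15 and in SCNT ICM in 13 of 15. Pairs that share a locus are not separate measurements. The stretches of 3 pairs are printed because these pairs hold the H2b genes with the largest rise into the ICM or the H2a gene with the largest rise at L2C. Each is read on the strand of its H2b gene (mm10, plus strand). Capitals mark ATTTGCAT (the octamer known from H2B promoters), CCAAT and TATAAA, on either strand.
Hist1h2ac and Hist1h2bc, chr13:23683960-23684198: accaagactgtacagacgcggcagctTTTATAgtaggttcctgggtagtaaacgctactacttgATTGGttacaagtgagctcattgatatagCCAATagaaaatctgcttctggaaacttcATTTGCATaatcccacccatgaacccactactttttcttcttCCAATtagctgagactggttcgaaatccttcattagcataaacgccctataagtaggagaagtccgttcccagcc
Hist1h2ae and Hist1h2bg, chr13:23571221-23571399: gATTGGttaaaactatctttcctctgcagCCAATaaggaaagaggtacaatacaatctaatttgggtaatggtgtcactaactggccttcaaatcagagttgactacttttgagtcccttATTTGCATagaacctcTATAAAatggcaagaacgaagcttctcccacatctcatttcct
Hist1h2ag and Hist1h2bj, chr13:22042950-22043229: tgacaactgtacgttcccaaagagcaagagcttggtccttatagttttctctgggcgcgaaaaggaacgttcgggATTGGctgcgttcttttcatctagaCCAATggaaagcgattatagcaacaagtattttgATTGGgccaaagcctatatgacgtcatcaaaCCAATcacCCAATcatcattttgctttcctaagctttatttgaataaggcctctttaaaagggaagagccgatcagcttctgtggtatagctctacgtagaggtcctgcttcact
The first stretch is 239 bases long with 1 octamer, 3 CCAAT boxes and 1 TATAAA. The second is 179 bases with 1 octamer, 2 CCAAT boxes and 1 TATAAA, and the third is 280 bases with 5 CCAAT boxes and no match to the other motifs.

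The partners of the printed pairs were far apart in 4C. Hist1h2ac had a median of 86.6 TPM in 4C where Hist1h2bc had 0.645 TPM, and in SCNT ICM the order was the reverse, 49.6 TPM against 215 TPM. Hist1h2ae had 54.2 TPM in 4C against 0.640 TPM of Hist1h2bg, and in SCNT ICM 70.7 TPM against 53.5 TPM. For Hist1h2ag and Hist1h2bj the medians were 666 and 2.55 TPM in 4C and 355 and 7.24 TPM in SCNT ICM. Hist1h2ac and Hist1h2ae were singled out after their values had been seen.

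**Figure D4:**
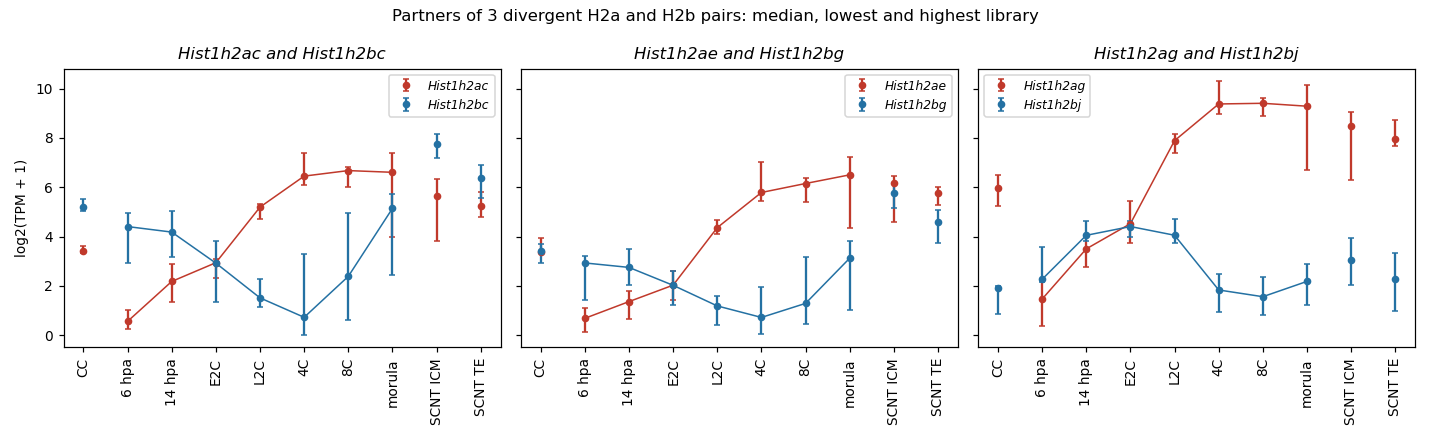
Level on the log2(TPM + 1) scale in CC and each SCNT stage for the H2a (red) and H2b (blue) partner of the 3 printed pairs, with points at the median and bars from the lowest to the highest library. The H2a partner is the higher in 4C in each panel, and Hist1h2bc is above Hist1h2ac in SCNT ICM at medians of 215 and 49.6 TPM.

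Over wider sets, RefSeq promoters of 300 bases (250 before and 50 after the start) matched 61 of the genes. The octamer lay on either strand in 7 of 17 H2a promoters (41.2%) and 7 of 16 H2b promoters (43.8%), in none of the 6 H1, 10 H3 and 12 H4 promoters, and in 1.74% of all 32851 promoters. Windows of head-to-head partners overlap and can hold the same octamer, so the H2a and H2b shares are not separate counts. CCAAT lay in every H1, H2a, H2b and H3 promoter, in 3 of 12 H4 promoters (25.0%) and in 37.41% of all promoters. TATAAA lay in 66.7% of H1, 64.7% of H2a, 50% of H2b, 40.0% of H3 and 66.7% of H4 promoters, against 13.62% of all. Since oligo-dT can also copy from runs of A inside an mRNA, the coding sequences were scanned for A: the richest window of 20 bases held 9 to 12 A in H2a genes, 10 to 12 in H2b, 10 to 14 in H1, 7 to 8 in H3 and 8 in H4. The part of such runs in these levels was not tested.

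Factors that make or process histone mRNA were followed as a list of 25 genes. Slbp, which encodes the stem-loop binding protein, held 154 to 214 TPM in CC and 3538 to 6171 TPM at 6 hpa (median 5315), a rise of 4.73 ± 0.40 log2 units with no overlap (adjusted p = 3.018e-15, limma). Its medians then were 4183 at 14 hpa, 2665 in E2C (665 to 4345), 423 in L2C (161 to 491) and 126 in 4C. It fell by 2.55 ± 0.33 from E2C to L2C (adjusted p = 1.623e-08, limma), the step at which 13 H2a genes rose, and no L2C library overlapped with E2C. A link between the fall of Slbp and the rise of these genes was not tested.

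Of the 25 genes, 8 rose and 5 fell from CC to 6 hpa, 7 rose and 4 fell from E2C to L2C, and 3 rose and 3 fell from L2C to 4C. The shares of all genes called higher and lower were 25.8% and 35.6%, 23.7% and 11.2%, and 11.8% and 26.6% at these steps, so the list's counts are not read as particular to it. Casp8ap2, which encodes the histone locus body protein FLASH, was at 3.87 to 8.56 TPM in CC and 90.4 to 211 TPM at 6 hpa (4.34 ± 0.42, adjusted p = 1.927e-13, limma) and fell from L2C to 4C (−1.25 ± 0.36, adjusted p = 0.00366, limma). Npat, the coactivator of histone transcription, rose from a median of 8.09 TPM in E2C to 15.3 TPM in L2C (1.25 ± 0.47, adjusted p = 0.02952, limma). Lsm10, a U7 subunit, fell from 67.9 TPM in 4C to 13.4 TPM in 8C (−2.60 ± 0.57, adjusted p = 0.0006869, limma) and rose from morula to TE (2.72 ± 0.54, adjusted p = 0.0001327, limma). Counts for the remaining steps were 1 higher and 1 lower from 6 hpa to 14 hpa, 2 and 0 from 14 hpa to E2C, 2 and 4 from 4C to 8C, 1 and 0 from 8C to morula, 0 and 8 from morula to ICM, 3 and 5 from morula to TE, and 0 and 0 between SCNT ICM and TE.

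In fertilized blastocysts the targeted genes were checked first. Max, the partner protein of MYC, was at 38.0 and 8.42 TPM in control MO ICM and at 6.82 and 0.443 TPM in Max MO ICM (−2.51 ± 0.80, adjusted p = 0.0397, limma). In TE it was at 34.5 and 28.5 TPM with control MO and at 16.3 and 8.68 TPM with Max MO, a change of −1.32 ± 0.80 that did not pass the test (adjusted p = 0.3897, limma). Mcrs1, a subunit of chromatin complexes, went from 253 and 310 TPM to 86.8 and 73.4 TPM in ICM with Mcrs1 MO (−1.80 ± 0.21, adjusted p = 0.003328, limma), and from 219 and 294 TPM to 41.1 and 45.5 TPM in TE (−2.53 ± 0.21, adjusted p = 0.0008684, limma). A morpholino can block translation or splicing, so RNA level is only part of a check on it.

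The control MO ICM libraries, which enter both morpholino comparisons in ICM, stood apart from each other. Summed TE markers were 16260 TPM in replicate 1 and 622 TPM in replicate 2, against 20790 and 18610 TPM in control MO TE. Summed ICM markers were 823 and 939 TPM, above the 231 and 276 TPM of control MO TE. Hist1h1a was at 0.607 TPM in replicate 1 and 21.0 TPM in replicate 2, where the other 10 fertilized libraries held 0 to 2.73 TPM. The 8 oocyte markers summed to 43.8 TPM in replicate 2, where 5 of them were at 1 TPM or more, to 0.137 TPM in replicate 1 and to at most 8.38 TPM in the other fertilized libraries. Their part in these values was not tested. Between control ICM and TE, no histone gene was called by limma, against 1.72% of all genes higher and 1.2% lower, and at an unadjusted p under 0.05 0 were higher and 7, all of H2a, were lower, where 10.4% and 11.5% of all genes were. Without replicate 1, 2 genes were higher in ICM, and without replicate 2, 5 were lower.

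With Max MO, 15 of 51 histone genes tested rose in ICM and 0 fell, against 8.65% and 15.1% of all 11219 genes. The median change of the tested histone genes was 1.39 log2 units, against −0.21 over all genes. By class, 11 of 15 H2a genes rose, with 1 of 4 H1, 1 of 14 H2b, 0 of 11 H3 and 2 of 7 H4. The summed H2a TPM was 114 and 241 in control MO ICM and 1410 and 1129 in Max MO ICM. Every Max MO library was above every control MO library for all 15 genes, and 100% of all genes called in this comparison were likewise free of overlap. Summed ICM markers were 604 and 630 TPM in Max MO ICM, below both control MO ICM libraries, and TE markers were 2770 and 5903 TPM, between them. The part of these differences in the counts was not tested.

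Hist1h2ap was at 26.1 and 64.0 TPM in control MO ICM and at 398 and 388 TPM in Max MO ICM (3.23 ± 0.38, adjusted p = 0.0007426, limma). Hist1h2ag was at 13.7 and 30.5 TPM and then at 278 and 142 TPM (3.21 ± 0.46, adjusted p = 0.001369, limma). Hist1h1c, a linker gene, was listed at 0 in both control libraries and at 15.4 and 4.12 TPM with Max MO.

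In TE, Max MO gave no call by limma, against 1.04% of all genes higher and 1.45% lower, with 1 gene higher and 2 lower at an unadjusted p under 0.05, a level met by 8.35% and 12.1% of all genes. The H2a sum in TE was 380 and 293 TPM with control MO and 396 and 381 TPM with Max MO. For the difference between the ICM and the TE response, 0 genes of any kind were called, 0.0% higher and 0.0% lower, and 14 histone genes had an unadjusted p under 0.05, all in the direction of a larger change in ICM, where 6.13% of all genes had such a p in that direction. Hist1h2ap had a difference of 2.94 ± 0.54 log2 units (adjusted p = 0.1458, limma), so its responses in ICM and TE were not shown to differ.

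With Mcrs1 MO, 14 genes rose in ICM and 0 fell, against 4.88% and 5.21% of all genes. They comprised 8 H2a, 2 H2b, 3 H4 and 1 H1 gene, and all 14 were free of overlap, as were 100% of all genes called. Summed ICM markers were 292 and 600 TPM in Mcrs1 MO ICM, below both control MO ICM libraries, and TE markers were 11620 and 8114 TPM, between them, and their part was not tested. The H2a sum was 660 and 758 TPM, against the same control libraries at 114 and 241 TPM. Hist1h2ap was at 213 and 196 TPM (2.29 ± 0.38, adjusted p = 0.007881, limma). Hist1h4n was at 0.0791 and 0 TPM with control MO and at 6.71 and 12.2 TPM with Mcrs1 MO.

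In TE, Mcrs1 MO raised 2 genes and lowered 0, against 1.77% and 3.31% of all genes. They were Hist1h4m and Hist1h4n, which share loci. Both were listed at 0 in the 2 control MO TE libraries, and with Mcrs1 MO Hist1h4n was at 6.46 and 10.1 TPM and Hist1h4m at 2.50 and 3.87 TPM. The count depends on the setting: 0 of 20 genes tested were called where a mean of at least 5 TPM was required, and 1 with the replicate block. The test of the ICM against the TE response again called 0 genes, 0.0% higher and 0.0% lower, with 8 histone genes at an unadjusted p under 0.05, all H2a and all higher in ICM, against 5.87% of all genes in that direction, and Hist1h2ap at 2.59 ± 0.54 (adjusted p = 0.3718, limma).

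The morpholino counts rest on pooling the spread of all 12 libraries. Fitted on the 4 libraries of each comparison alone, Max MO and Mcrs1 MO called 0 histone genes in ICM. Without control ICM replicate 1, Max MO gave 11 genes higher and 2 lower and Mcrs1 MO gave 10 higher and 1 lower, and without replicate 2 they gave 17 and 19 higher. Leaving out Mcrs1 MO ICM replicate 1 left 1 gene and leaving out replicate 2 left 2, where leaving out a Max MO library left 10 or 11.

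**Figure D5:**
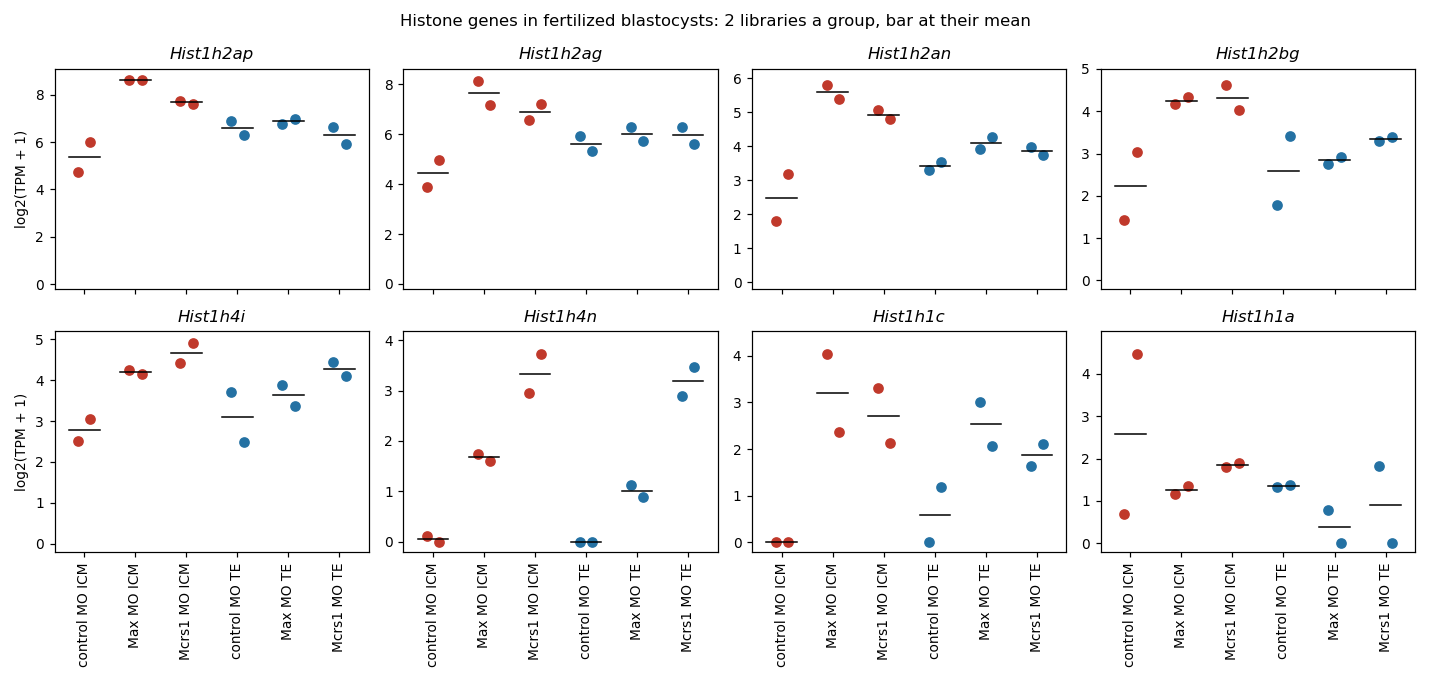
Level on the log2(TPM + 1) scale of 8 histone genes in the 6 groups of fertilized blastocysts, with 1 point per library, a bar at the mean of the 2, ICM in red and TE in blue. Hist1h2ap lies at 398 and 388 TPM in Max MO ICM and at 26.1 and 64.0 TPM in control MO ICM, and the last panel shows Hist1h1a at 21.0 TPM in 1 control ICM library.

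Among the processing factors, 24 of the 25 could be tested in fertilized blastocysts. Npat was at 20.6 and 32.4 TPM in control MO ICM and at 3.93 and 4.11 TPM in Max MO ICM, and fell by 2.42 ± 0.47 log2 units (adjusted p = 0.004723, limma). Slbp was at 474 and 300.2 TPM in control MO ICM and at 963 and 812 TPM in Mcrs1 MO ICM (1.23 ± 0.24, adjusted p = 0.01201, limma). In all, 2 of the 24 rose and 3 fell with Max MO in ICM, 3 rose and 0 fell with Mcrs1 MO in ICM, 1 rose and 1 fell with Mcrs1 MO in TE, and 0 were called with Max MO in TE or between control ICM and TE. The shares of all genes given above for these comparisons are the background of these counts.

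SCNT and fertilized blastocysts came from different experiments and strains, and the fertilized ones had been injected, so embryo type cannot be told apart from these and no test was made. Side by side, the H2a sum was 468 to 3020 TPM in SCNT ICM and 114 and 241 TPM in control MO ICM. In TE it was 1048 to 2379 TPM in SCNT embryos and 380 and 293 TPM with control MO. For H2b the sums were 211 to 431 TPM and 19 and 59.0 TPM in ICM, and 68.9 to 201 TPM and 21.5 and 61.7 TPM in TE. The H4 sums overlapped in ICM, at 3.97 to 121 TPM and 11.8 and 27.6 TPM. In TE the H4 sums did not overlap, at 40.7 to 111 TPM and 19.6 to 21.7 TPM. H3 sums overlapped in ICM, at 4.98 to 75.3 TPM and 11.5 to 11.7 TPM. They also overlapped in TE, at 8.95 to 62.8 TPM and 17.2 to 21.6 TPM. H1 sums overlapped in both tissues.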

How the data were processed

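RNA of 68 mouse libraries was read by Smart-seq2, which captures polyadenylated RNA. Per the labels and the paper's methods, the authors trimmed reads with cutadapt 1.16, aligned them to mm10 with HISAT2 and tabulated genes with StringTie. The deposited TPM include assembled loci scaled to a fixed total, with rows of reference genes listed beside them, so they are relative values without counts, and no counting interval can be given. The deposited FPKM and coverage were used only to estimate aligned bases per library (1.00 to 5.17 gigabases). The authors used DESeq2 for their own tests, which cannot be run on TPM.

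TPM of rows with the same symbol were summed per library. Groups came from the labels. Tests used limma 3.58.1 in R 4.3.3 (lmFit, eBayes with trend) on log2(TPM + 1) over genes with a mean of at least 1 TPM, with Benjamini-Hochberg adjustment over all genes tested: 53 SCNT libraries, 56 with CC, and 12 fertilized. Fold changes are on the log2(TPM + 1) scale, which understates changes of low genes. Errors are standard errors from limma. Calls needed an adjusted p below 0.05 and at least a 2-fold difference. Class sums were described without a test. Same-numbered libraries deviated together in every pair at 6 hpa and 14 hpa (correlation 0.142 to 0.39) and in SCNT ICM and TE (0.131 to 0.3), so a fit with the replicate number as a block was made. In these groups, replicates 1 to 3 also differed from replicates 4 to 6 in genes listed at 1 TPM or more. Such a difference alone can give positive correlations, so they do not show that the numbers mark paired libraries. Self-tests on simulated data were run first.

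The text names the 4 most abundant members of each class and up to 5 called members per direction with the largest change in each comparison, and any further one is there as part of a count, a pair or a check. The members and lists were chosen with earlier results of these data known. Alternatives varied the filter, pseudocount, scaling, block and libraries. The label's replicate number was kept for the 4C library whose file name gives another number.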

Additional observations from a re-analysis of the deposited data

Results flagged for a closer look

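Within the 45 sets of class sums by SCNT stage, each of 5 or 6 libraries, 2 held a library far from the rest by Dixon's test, and chance flags about 1 set in 20. The 8C replicate 5 library had a summed H2b level of 57.8 TPM, where the other 5 libraries held 3.75 to 23.5 TPM. The 6 hpa replicate 6 library had a summed H4 level of 51.2 TPM, where the other 5 held 20.7 to 28.8 TPM.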

How the results depend on the processing

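Values are TPM without counts, so depth limits low genes in a way that could not be given as an interval, and 11 members had means under 1 TPM. Near-identical copies share reads, and groups of 2 libraries rest on a pooled spread. No called change of a named gene reversed under any alternative run: 1145 results for named genes were on the same side of the threshold and 184 fell below it. Of the counts of called members under alternatives, 125 were within 1.5 times of the main count, 22 were above and 20 below. These compare numbers and not genes: in replicates 4 to 6 alone, the count from 14 hpa to E2C turned from 2 higher to 3 lower, with 0 genes shared. The causes were not tested.

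With a mean of at least 5 TPM required, the counts were 1 from 4C to 8C, 6 from morula to ICM, 9 for Mcrs1 MO in ICM and 0 for Mcrs1 MO in TE. With all genes above 0 tested they were 0 for SCNT ICM against TE and 9 for Mcrs1 MO in ICM. A pseudocount of 0.1 gave 3 from 4C to 8C, 7 from morula to ICM, 3 from morula to TE and 0 for SCNT ICM against TE. Quantile normalization gave 5 from 14 hpa to E2C (2 higher, 3 lower) and 32 from E2C to L2C (14 higher, 18 lower). Rescaling over reference genes gave 2 from 4C to 8C and moved the median of all genes from 0.26 to 0.54 log2 units from E2C to L2C and from −0.33 to −0.57 from L2C to 4C.

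Replicates 1 to 3 alone gave 5 from 6 hpa to 14 hpa, 4 from 14 hpa to E2C, 1 from 8C to morula, 0 from morula to TE and 3 for SCNT ICM against TE. Replicates 4 to 6 alone gave 5 from 4C to 8C, 13 from 8C to morula, 27 from morula to ICM, 22 from morula to TE and 4 for SCNT ICM against TE. The replicate block gave 1 from 4C to 8C, 3 for SCNT ICM against TE and 1 for Mcrs1 MO in TE, and in the other comparisons it moved no count by over 1.5 times. Numbers were treated as pairing libraries, which the correlations do not show, where there were at least 3 pairs and every pair's correlation was over 0.1. That rule was met at 6 hpa with 14 hpa and at SCNT ICM with TE. Control ICM and TE had 0.128 but 2 pairs. Fits on only the groups compared gave 0 for Max MO in ICM, 2 for Max MO in TE, 0 for Mcrs1 MO in ICM and 4 for Mcrs1 MO in TE.

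Leaving out 1 library at a time, among the CC, 4C and morpholino libraries, gave 29 to 31 from CC to 6 hpa, 28 to 34 from L2C to 4C, 0 to 1 from 4C to 8C, 10 to 17 for Max MO in ICM, 0 for Max MO in TE, 1 to 19 for Mcrs1 MO in ICM, 0 to 1 for Mcrs1 MO in TE and 0 to 5 for control ICM against TE. A lone library is assumed to vary like the other groups. Chosen after seeing the data, leaving out morula replicate 2 gave 4 from 8C to morula, 19 from morula to ICM and 13 from morula to TE, and leaving out L2C replicate 1 gave 21 from E2C to L2C. Counting symbols on the same locus once was also chosen after seeing the data.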

Other observations

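Replacement histones were read as a list of 12 genes, of which 10 could be tested in the SCNT series. Most genes of this kind are not tied to S phase, and most of their mRNAs carry a poly(A) tail. H1foo, the linker histone of the oocyte, was listed at 0 in the 3 CC libraries, at 2280 to 7456 TPM at 6 hpa (median 6552) and at 70.7 to 585 TPM at 14 hpa. It fell by 4.45 ± 0.62 log2 units between these times (adjusted p = 3.143e-07, limma), and fell again from E2C to L2C (−2.53 ± 0.62) and from L2C to 4C (−2.84 ± 0.65). H2afz, which encodes H2A.Z, held 7646 to 7947 TPM in CC and 153 to 189 TPM at 6 hpa (−5.45 ± 0.28, adjusted p = 4.23e-24, limma). It rose from 14 hpa to E2C (1.28 ± 0.23), from E2C to L2C (1.52 ± 0.23) and from L2C to 4C (1.3 ± 0.24), where its median was 3916 TPM.

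H2afj rose over the last 2 of these steps, by 2.33 ± 0.30 from E2C to L2C and by 2.23 ± 0.31 from L2C to 4C, to a median of 242 TPM. H2afy, which encodes macroH2A, had a median of 3.22 TPM in 4C, 48.1 TPM in morulae, 399 TPM in SCNT ICM and 458 TPM in SCNT TE, and rose from morula to ICM (3.32 ± 0.39, adjusted p = 2.699e-09, limma) and to TE (3.41 ± 0.39, adjusted p = 1.252e-09, limma). In fertilized ICM, 5 of 11 replacement genes tested rose with Max MO and 2 with Mcrs1 MO, and 0 fell with either. The shares of all genes called higher and lower were 8.65% and 15.1% with Max MO and 4.88% and 5.21% with Mcrs1 MO. Both comparisons use the same control MO ICM libraries, which stood apart from each other. H1f0, among the genes that rose with Max MO, was at 2.301 TPM in one of them and 44.97 TPM in the other. H2afj was at 41.2 and 42.7 TPM with control MO, at 100.2 and 107 TPM with Max MO (1.28 ± 0.22, adjusted p = 0.002506, limma) and at 81.6 and 97.2 TPM with Mcrs1 MO (1.07 ± 0.22, adjusted p = 0.01427, limma).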
